A study of Mus musculus with 6 samples.

Results

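The solute carrier genes of the mouse, whose symbols begin with Slc, were followed in bulk RNA-seq of lymph node cells from mice with or without perampanel. The gene table listed 348 genes under an Slc symbol among 23307 genes. Of these, 139 (39.9%) averaged 10 or more normalized read counts over the 6 libraries, which was the rule of choice, and 38.9% of all listed genes reached the same level. The 139 genes came from 40 of the 49 Slc families in the table, with 33 from Slc25, 19 from Slc35 and 10 from Slc39. The other 209 lay below that level, 59 of them at 0 in all 6 libraries. The last genes inside the rule were Slc39a8 and Slc45a4, with means of 10.5 and 10.2, and the first outside were Slc6a20b and Slc36a3os, both with a mean of 9.69. Since the level chose the genes, that they were expressed is a description and was not tested.

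Both groups were SJL mice with experimental autoimmune encephalomyelitis, an autoimmune disease of the nervous system raised by immunisation and called EAE, and inguinal nodes were collected at day 3 after induction. Cells of 3 mice given perampanel, an antagonist of AMPA glutamate receptors used against epileptic seizures, were set against cells of 3 control mice. The labels leave unstated what the control mice received, the dose of the drug and the sex and age of the animals. The nodes were passed through a strainer and the labels describe no sort for a cell type, poly(A) RNA was sequenced with a kit that does not mark strand, and the 6 libraries were not pooled.

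Solute carriers are membrane proteins that move amino acids, sugars, nucleotides, vitamins, metals and ions across the plasma membrane or across the membranes of organelles. Those of the Slc25 family sit in mitochondria and link the matrix with the cytosol, for example by exchanging ADP for ATP. Activated lymphocytes are known to raise glucose and amino acid uptake through carriers such as Slc2a1, Slc7a5 and Slc1a5, whereas resting lymphocytes keep these carriers low.

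Per kilobase of exon, the most abundant carrier transcripts among the 139 genes were mitochondrial. Slc25a5, the ADP/ATP carrier ANT2, stood first with a mean of 486 normalized counts per kb, and Slc25a3, the mitochondrial phosphate carrier, followed with 408. Slc25a5 ranged from 424 to 481 per kb in perampanel libraries and from 475 to 538 in control libraries. Slc25a3 ranged from 390.2 to 399 per kb in perampanel libraries and from 416 to 431 in control libraries. Within each group, every Slc25a5 value lay above every Slc25a3 value. In Slc25a5, 33.8% of the 50-base stretches also occurred in other annotated genes, most of them in the pseudogene Gm5560, so its level can include or lack reads of such copies.

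Below them came Slc44a2, a choline transporter-like protein, with 218 counts per kb, and Slc50a1, a sugar transporter of the SWEET family, with 189.7. Slc44a2 spanned 222 to 227 per kb in perampanel libraries and 189 to 225 in control libraries, and Slc50a1 spanned 192 to 196 in perampanel libraries and 171 to 200.4 in control libraries, so these neighbours did not separate in controls. Slc25a4, the ADP/ATP carrier ANT1, followed at rank 6 with 90.2, and Slc17a9, which loads ATP into vesicles, at rank 7 with 86.1. The first 3 genes held 31.1% of the summed per-kb level of all 139. Slc9a3r1, at rank 5 with 118, is a scaffold protein named after an exchanger and no carrier, and the same holds for Slc4a1ap and Slc7a6os, which leaves 136 carriers.

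**Figure D1:**
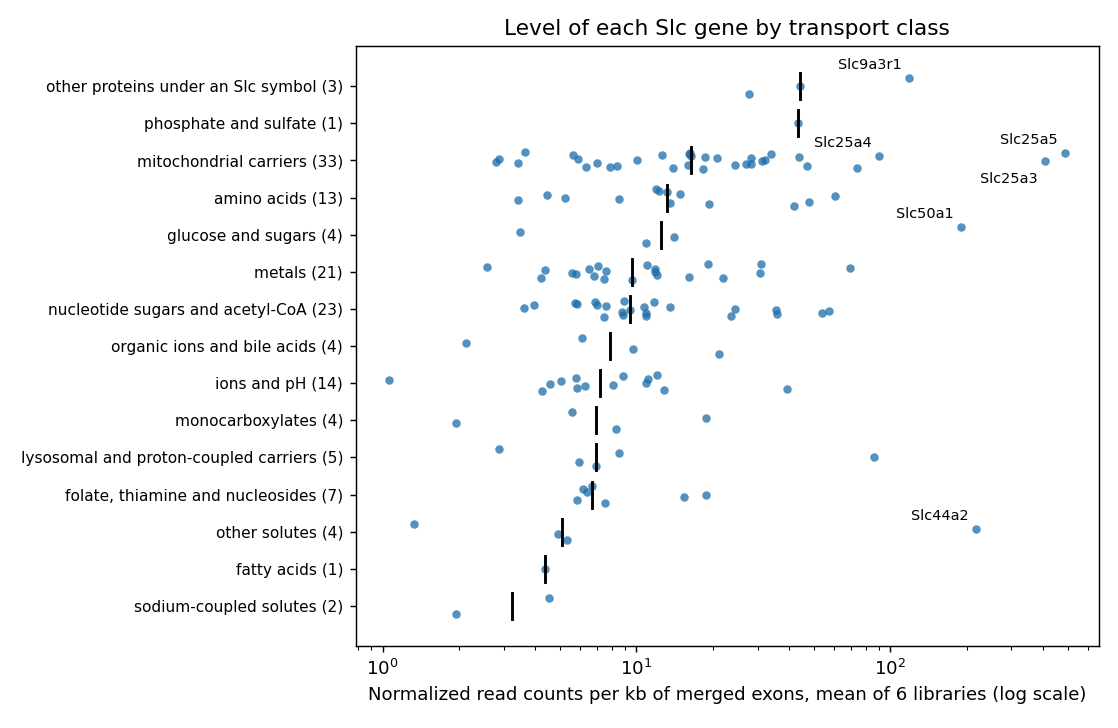
Mean level of each of the 139 Slc genes in normalized read counts per kb of merged exons over 6 libraries (horizontal log axis), grouped by what they carry (vertical axis, number of genes in parentheses). Points are genes and black bars are class medians. Slc25a5 and Slc25a3 stand at 486 and 408, and 33 mitochondrial carriers span 2.79 to 486.

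The levels spanned a wide range within most classes. The 13 carriers of the amino acid families Slc1, Slc3, Slc6, Slc7, Slc38 and Slc43, among them Slc38a9 of lysosomes, had a median of 13.3 counts per kb and were led by Slc3a2, the heavy chain of the heterodimeric amino acid transporters, with 60.8, and by Slc38a2, a sodium-coupled carrier of neutral amino acids, with 47.9. The glucose carriers Slc2a3 (GLUT3) and Slc2a1 (GLUT1) had 14.01 and 10.9 counts per kb, with ranges that overlapped in both groups. Every one of the 139 genes had reads in all 6 libraries, and all were annotated as protein-coding. In 38 of them some exon bases overlapped another gene, and without strand the reads of such pairs cannot be told apart.

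None of the 139 genes passed the test between perampanel and control nodes (limma on log2(value + 1), Benjamini-Hochberg over 9076 genes, adjusted p under 0.05), against a background of 1.1% of all genes tested. At an unadjusted p under 0.05 there were 11 of 139 genes (7.91%), 3 higher and 8 lower under perampanel, against 9.33% of all genes tested, 4.36% higher and 4.97% lower. The edgeR quasi-likelihood test on recovered reads also called 0, with 11 at an unadjusted p under 0.05, against 1.19% and 9.29% of all genes. DESeq2 called 0 and gave an adjusted p for 19 of the 139, with 3 at an unadjusted p under 0.05, against 1.66% of the genes it adjusted and 4.15% of all genes. In bulk RNA, fewer cells of a type and less RNA per cell cannot be told apart.

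The fold changes centred on 0. The median over the 139 genes was 0.01 on the log2 scale and that over all tested genes 0.00, with 71 genes above 0 and 68 below. The median absolute fold change was 0.17 for the Slc genes and 0.13 for all tested genes, and their median levels were 42.7 and 67.1 normalized counts. In 14 of 139 genes (10.1%) the perampanel libraries did not overlap the control libraries, 7 higher and 7 lower, against 14.1% of all tested genes, 7.18% higher and 6.9% lower. Together the 139 genes took 0.468%, 0.483% and 0.477% of all normalized counts in perampanel libraries, against 0.495%, 0.492% and 0.487% in control libraries. The perampanel shares were all lower, while the summed levels overlapped with TMM scaling. Only Slc25a27 had an absolute log2 fold change of at least 1, against 0.992% of all tested genes.

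**Figure D2:**
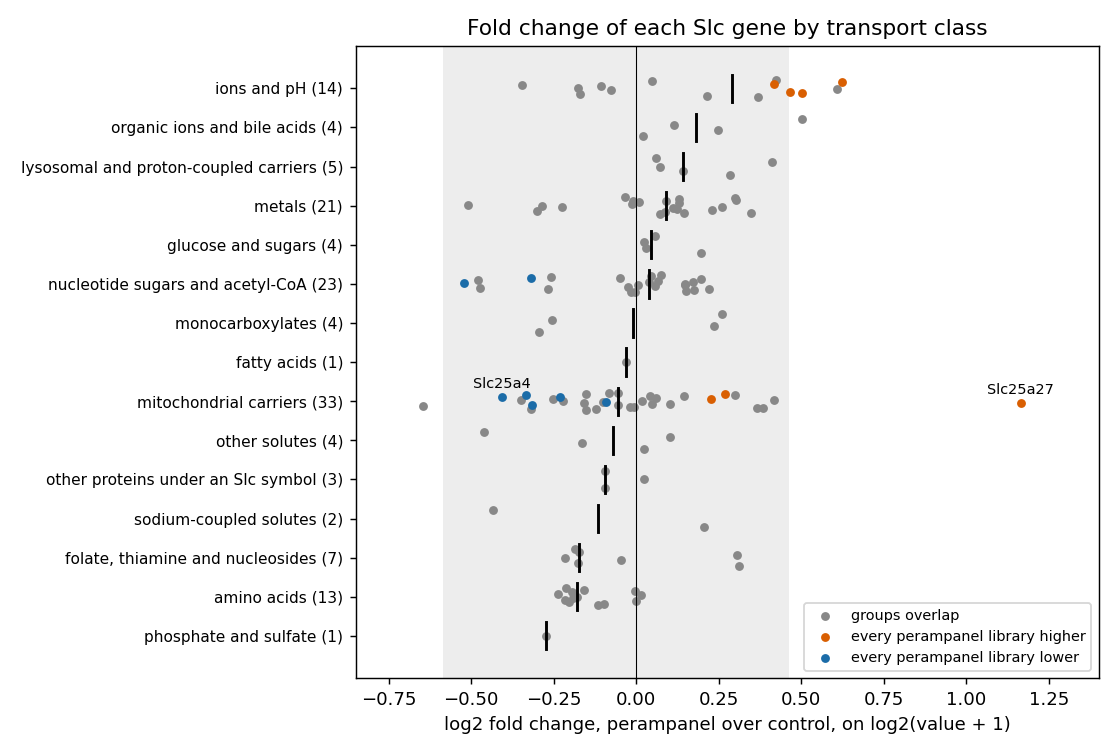
Log2 fold change of each of the 139 Slc genes, perampanel over control, on the log2(value + 1) scale (horizontal axis), by class (vertical axis, number of genes in parentheses). Points are genes, coloured where the groups did not overlap, and black bars are class medians. The grey band spans -0.59 to 0.46, which holds the central 95% of all 9076 tested genes, and Slc25a27 at 1.16 lies farthest outside it.

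The mitochondrial carriers were the class with the lowest adjusted p. Of 33 Slc25 genes 0 were called, 13 had a fold change above 0 and 20 below, and the median was -0.05 on the log2 scale. Leaving out 1 library moved the median between -0.13 (without perampanel library 2) and -0.03 (without perampanel library 3, 16 above and 17 below), and in the 16 genes with a mean of at least 50 it was -0.14, with 4 above and 12 below. The groups did not overlap in 8 of the 33 genes, 3 higher and 5 lower, against 14.1% of all tested genes. Slc25a27, among the 3 higher, entered the rule only through its perampanel level. The summed Slc25 level was 3015, 3162 and 3099.9 normalized counts in perampanel libraries 1 to 3, against 3347, 3270.4 and 3364 in control libraries 1 to 3. All 3 perampanel sums lay below all 3 control sums, by 7.07% on average, and by 6.54% with TMM scaling. Without Slc25a3, Slc25a4 and Slc25a5 the sums were 1572, 1660.0 and 1577 in perampanel libraries and 1652, 1654 and 1718 in control libraries, and the groups overlapped. These sums cover Slc25 symbols only and leave out mitochondrial carriers under other symbols. Of those, Ucp2 had more counts than any Slc25 gene and was higher without overlap. It had 1947, 1858 and 1925 in perampanel libraries, against 1742, 1785 and 1819.5 in control libraries. The sums are therefore no measure of all mitochondrial carriers.

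Slc25a4 lies on the minus strand of chromosome 8 (46206797 to 46211284, GRCm38). It had 147, 150.3 and 150.0 normalized counts in perampanel libraries 1 to 3, against 218, 188 and 189 in control libraries 1 to 3. The 3 perampanel values lay within 4 counts of each other and below every control value. The means were 149 ± 1.89 in perampanel and 198 ± 16.7 in control nodes (SD, n = 3 each), a log2 fold change of -0.41 with a standard error of 0.11 (95% interval -0.62 to -0.19). The adjusted p was 0.0590 (limma, Benjamini-Hochberg), and the gene stood at rank 108 of 9076 by p. It was called when no filter on low values was used (adjusted p 0.0306), when genes averaging under 50 were left out (0.0417) and when all libraries were thinned to the depth of the shallowest (0.0390), each by limma. Over all 16 alternatives its fold change was -0.46 to -0.34 and its adjusted p 0.0306 to 0.387. In the authors' deposited table its log2 fold change was -0.41 with an adjusted p of 0.178, the lowest of the 19 Slc genes that have one there.

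The closely related ADP/ATP carrier Slc25a5 (plus strand of chromosome X, 36795651 to 36798807) had 526, 592 and 596 normalized counts in perampanel libraries, against 667, 589 and 648 in control libraries. Control library 2 lay below perampanel libraries 2 and 3, so the groups overlapped. The log2 fold change was -0.15 (95% interval -0.30 to -0.00, adjusted p 0.516 by limma with Benjamini-Hochberg). No 50-base stretch of the Slc25a4 transcripts occurred in another annotated gene, Slc25a5 included.

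Slc25a3 (minus strand of chromosome 10, 91116574 to 91124059) imports phosphate for ATP synthesis. It had 770.0, 759 and 776 normalized counts in perampanel libraries, against 810.1, 839 and 809 in control libraries. The perampanel values were all lower, by a small margin, and its spread within groups was the smallest of all 139 genes, with a coefficient of variation of 1.70%. It also had the highest mean of the 139, and 3 libraries per group estimate a spread only loosely. The log2 fold change was -0.09 (95% interval -0.21 to 0.03, adjusted p 0.672 by limma with Benjamini-Hochberg).

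These 3 genes supply the substrates of ATP synthesis. Their promoters are shown because the summed levels of the genes with an Slc25 symbol overlapped between the groups without them. Each sequence is RefSeq's (GRCm38.p6, the C57BL/6J reference and not the SJL strain), on the strand of the gene. It runs from 250 bases before to 50 bases after RefSeq's transcript start. That start lies 222 bases inside the GENCODE gene for Slc25a4, 92 bases inside it for Slc25a3 and 54 bases before it for Slc25a5. Capitals mark matches to the motifs searched on both strands: E-box (CACGTG), ETS (CCGGAAGT), the NRF1 consensus, the amino acid response element core (TGATGNAA), CCAAT box (CCAAT) and TATA box (TATAAA).
Slc25a4, chr8:46211013-46211312, minus strand: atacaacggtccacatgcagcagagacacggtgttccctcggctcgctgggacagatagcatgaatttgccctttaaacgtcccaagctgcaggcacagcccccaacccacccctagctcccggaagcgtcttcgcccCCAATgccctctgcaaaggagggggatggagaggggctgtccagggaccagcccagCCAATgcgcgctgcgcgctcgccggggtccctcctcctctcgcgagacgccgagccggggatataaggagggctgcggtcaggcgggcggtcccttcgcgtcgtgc
Slc25a5, chrX:36795347-36795646, plus strand: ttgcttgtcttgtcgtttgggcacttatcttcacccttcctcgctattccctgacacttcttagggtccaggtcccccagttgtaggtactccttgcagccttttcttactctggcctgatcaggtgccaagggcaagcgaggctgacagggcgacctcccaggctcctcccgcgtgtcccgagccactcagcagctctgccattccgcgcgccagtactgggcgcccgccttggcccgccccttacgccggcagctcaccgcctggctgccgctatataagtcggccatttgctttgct
Slc25a3, chr10:91123918-91124217, minus strand: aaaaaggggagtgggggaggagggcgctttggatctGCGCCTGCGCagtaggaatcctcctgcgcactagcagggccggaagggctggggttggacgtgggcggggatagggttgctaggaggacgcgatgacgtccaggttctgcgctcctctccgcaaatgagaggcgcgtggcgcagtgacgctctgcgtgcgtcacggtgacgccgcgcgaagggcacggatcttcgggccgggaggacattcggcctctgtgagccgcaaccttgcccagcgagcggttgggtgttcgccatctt
The Slc25a4 window held 2 CCAAT matches, starting at positions -112 and -56 from the start, and the Slc25a3 window held 1 NRF1 match on the opposite strand at -214. The Slc25a5 window held no match to the letters of the 6 motifs. Variants of these letters, such as tatataag in the Slc25a5 window, were not searched. The GC content of the windows was 65.7%, 61.0% and 65.7% in the order printed.

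The table of promoters gave 142 promoters for 106 of the 139 Slc genes. An E-box occurred in 15.5% of them and in 17.6% of the 34 Slc25 promoters, against 7.15% of all 32851 promoters. The exact letters TATAAA occurred in 5.63% of Slc promoters and in 0 of 34 Slc25 promoters, against 13.6% of all. Variants of the TATA box were not searched. CCAAT occurred in 34.5% of Slc promoters, in 47.1% of Slc25 promoters and in 37.4% of all. The amino acid response element core occurred in 1.41% of Slc promoters against 3.97% of all, NRF1 in 7.04% against 4.60%, and ETS in 6.34% against 3.89%. None of the 6 motifs contains another. The Slc genes were chosen by their level, whereas the set of all promoters had no such filter, so the sets are unlike. The part of that choice in these percentages was not tested. A match of letters is a description and no evidence of binding.

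The remaining mitochondrial carriers had values in both directions. Slc25a11, which exchanges oxoglutarate for malate, had 108, 122 and 106 normalized counts in perampanel libraries, against 115, 144 and 164 in control libraries. Perampanel library 2 lay above control library 1 and the rest was lower, with a log2 fold change of -0.32 (95% interval -0.59 to -0.05, adjusted p 0.411 by limma with Benjamini-Hochberg). Slc25a22, a glutamate carrier, had 60.2, 76.7 and 81.3 in perampanel libraries, against 98.4, 88.6 and 83.6 in control libraries, without overlap. Its log2 fold change was -0.32 (adjusted p 0.529, limma with Benjamini-Hochberg). Slc25a45 had 85.7, 73.6 and 82.4 in perampanel libraries, against 123, 86.8 and 98.3 in control libraries. All perampanel values were again lower, and the log2 fold change was -0.33 (adjusted p 0.458, limma with Benjamini-Hochberg).

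Slc25a36, a carrier of pyrimidine nucleotides, had 161, 166 and 156 normalized counts in perampanel libraries, against 113, 148 and 155 in control libraries. Perampanel library 3 exceeded control library 3 by less than 1 count, and the groups did not overlap. Its log2 fold change was 0.23 (adjusted p 0.595, limma with Benjamini-Hochberg). Slc25a46, an outer membrane protein of the family that takes part in mitochondrial shape, had 75.5, 76.7 and 79.0 in perampanel libraries, against 67.9, 58.5 and 65.2 in control libraries. The groups did not overlap, with a log2 fold change of 0.27 (adjusted p 0.617, limma with Benjamini-Hochberg). Slc25a39, which brings glutathione into mitochondria, had 69.4, 67.6 and 65.2 in perampanel libraries, against 85.6, 70.3 and 82.7 in control libraries. All perampanel values were lower, with a log2 fold change of -0.23. Slc25a30 had 122, 109 and 116 in perampanel libraries, against 122, 121 and 101 in control libraries, with overlap and a log2 fold change of 0.02.

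**Figure D3:**
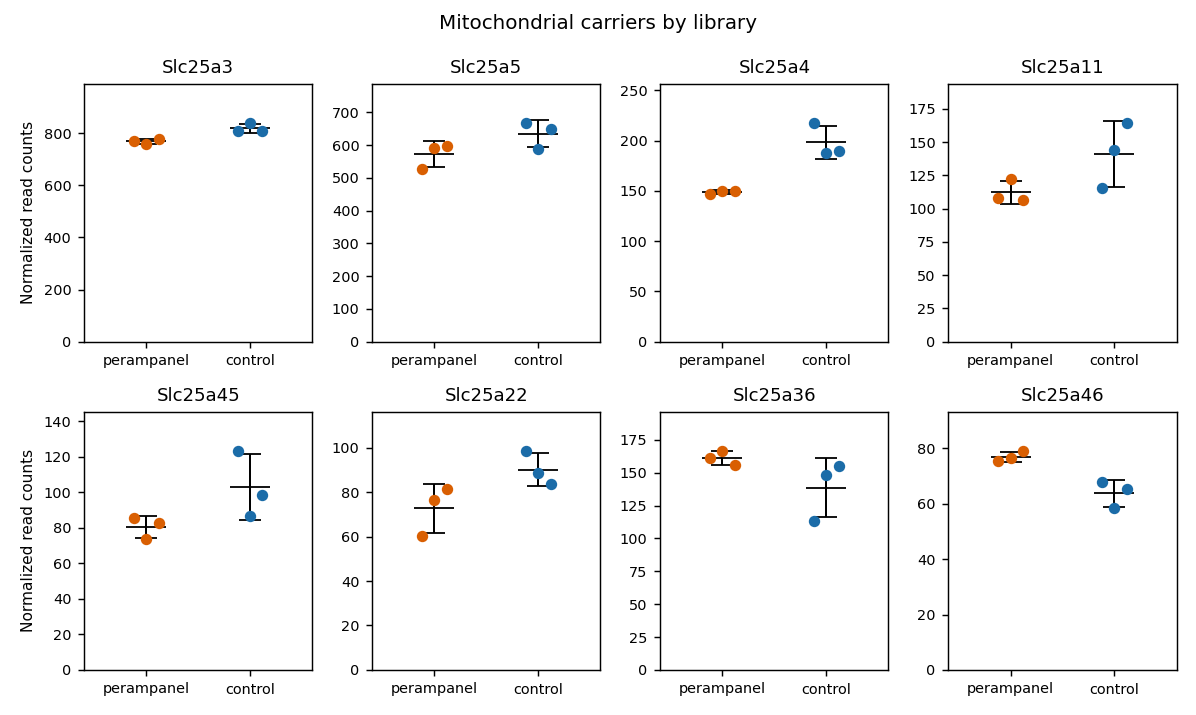
Normalized read counts of 8 mitochondrial carriers (vertical axes, each from 0) in 3 perampanel libraries (left, orange) and 3 control libraries (right, blue). Points are libraries, long bars are means and whiskers are SD. Slc25a4 lies at 147 to 150.3 in perampanel libraries and at 188 to 218 in control libraries, without overlap.

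The largest absolute fold change was in a gene of few reads. Slc25a27, the uncoupling protein UCP4, had 17.3, 14.1 and 14.9 normalized counts in perampanel libraries, against 4.92, 9.13 and 5.51 in control libraries. The groups did not overlap, and its control mean of 6.52 was below 10, so it entered the rule only through its perampanel level and its difference is given as a description. The same holds for Slc25a35 and Slc26a6, and Slc45a4 entered only through its control level. The log2 fold change was 1.16 (95% interval 0.31 to 2.02, adjusted p 0.267 by limma with Benjamini-Hochberg).

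Markers of dividing cells moved with the groups in these libraries. Their summed level was 516, 379 and 171 normalized counts in perampanel libraries, against 909, 703 and 790 in control libraries. All 8 had a fold change below 0 and 6 of 8 passed the limma test as lower, with a median of -1.60. Summed T cell markers were 21477 to 22074 in perampanel libraries and 19673 to 20746 in control libraries, and 2 of 10, Trac and Tcf7, passed the limma test as higher. Of the 10, 7 had a fold change above 0 and 3 below, namely Cd8a, Cd8b1 and Cd3d. Cd8a had 138, 150.3 and 142 normalized counts in perampanel libraries, against 192, 172 and 187 in control libraries, without overlap. Its log2 fold change was -0.36 (adjusted p 0.130, limma with Benjamini-Hochberg). The part of either list in the Slc25 values was not tested. The libraries also differed in depth, with 1779724 to 2003726 reads in perampanel libraries and 2036072 to 2208589 in control libraries.

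Most carriers of the amino acid families Slc1, Slc3, Slc6, Slc7, Slc38 and Slc43 had slightly lower values under perampanel. Of these 13, 0 were called. The split depends on the classes, which were assigned by hand. Slc36a1, Slc36a4 and Slc16a10, which also carry amino acids, were placed in other classes, at 0.41, 0.06 and 0.24 on the log2 scale. Mitochondrial carriers of amino acids, also placed elsewhere, pointed both ways. Slc25a22 was at -0.32 and Slc25a12 at -0.12, while Slc25a15 was at 0.38, Slc25a44 at 0.30 and Slc25a38 at 0.06. With the deposited scaling 1 of 13 fold changes was above 0 and 12 below, with a median of -0.18. Quantile normalization gave 0 above and 13 below, and TMM scaling 3 and 10. The median moved to -0.08 without perampanel library 1, -0.07 without perampanel library 2 and -0.09 without control library 2, and in the 7 genes with a mean of at least 50 it was -0.10. Without perampanel library 3 the split was 4 and 9. The summed level was 1175, 1169.9 and 1173 normalized counts in perampanel libraries, against 1256, 1270.4 and 1204 in control libraries. Over these 13 genes the perampanel sums were all lower. The means were 1173 ± 2.55 in perampanel and 1243 ± 34.8 in control libraries (SD, n = 3 each), a difference of -5.69%, and of -5.16% with TMM scaling. Amino acid carriers placed in other classes were not in these sums.

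Slc38a2 and Slc38a1, which take up glutamine and other neutral amino acids with sodium, were the most read of the class. Slc38a2 had 213, 244 and 212 normalized counts in perampanel libraries, against 231, 203 and 235 in control libraries. Perampanel library 2 was the highest and control library 2 the lowest, and the log2 fold change was -0.00 (95% interval -0.21 to 0.20). Its sign turned with TMM scaling. Slc38a1 had 193, 209 and 196 in perampanel libraries, against 240.2, 216 and 186 in control libraries. Control library 3 lay below all perampanel libraries, and the log2 fold change was -0.10 (95% interval -0.31 to 0.12). All 6 Slc38 genes had values below 0 with the deposited scaling and 5 of 6 with TMM, with a median of -0.18, which was -0.07 without perampanel library 2 and -0.10 without control library 2. One of them, Slc38a9, the lysosomal arginine sensor of mTORC1, was at -0.18 on the log2 scale (95% interval -0.60 to 0.24).

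Slc1a5, the neutral amino acid exchanger ASCT2 and the one Slc1 gene of 7 within the rule, had 111, 114 and 108 normalized counts in perampanel libraries, against 133, 124 and 106 in control libraries. Control libraries 1 and 2 lay above and control library 3 below the perampanel values, and the log2 fold change was -0.12 (95% interval -0.38 to 0.14). Slc3a2 had 195, 178 and 182 in perampanel libraries, against 180.1, 192 and 176 in control libraries. The groups overlapped throughout, and the log2 fold change was 0.02 (95% interval -0.19 to 0.22). Its light chain partner Slc7a5 (LAT1), which imports leucine and other large amino acids, had 33.7, 36.3 and 53.8 in perampanel libraries, against 42.3, 45.7 and 47.8 in control libraries. Perampanel library 3 was the highest of all 6 and the other 2 the lowest, with a log2 fold change of -0.16 (95% interval -0.58 to 0.26). Slc7a1, a carrier of arginine and lysine, had 99.9, 102 and 83.6 in perampanel libraries, against 89.6, 96.8 and 99.2 in control libraries. Its log2 fold change was -0.01 (95% interval -0.29 to 0.28) and turned sign with TMM scaling. The adjusted p of these 4 genes was 0.835 or higher (limma, Benjamini-Hochberg).

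The glucose and sugar carriers lay close to 0 in fold change. All 4 were above 0 with the deposited, quantile and TMM scalings, 3 of 4 in thinned libraries and 2 of 4 without control library 3, and 0 were called. Their summed level was 308, 303 and 304 normalized counts in perampanel libraries, against 285, 297 and 295 in control libraries, higher without overlap by 4.33%. Slc50a1 made up most of that sum, and the groups overlapped in each of the 4 genes. The 3 Slc2 genes alone summed to 112, 102 and 109 in perampanel libraries, against 110.2, 106 and 90.0 in control libraries, with overlap. Slc2a3 had 49.97, 53.5 and 65.2 normalized counts in perampanel libraries, against 55.1, 56.6 and 52.4 in control libraries. The perampanel values spread to both sides of the controls, with a log2 fold change of 0.03 (95% interval -0.32 to 0.38). Slc2a1 had 42.8, 36.3 and 33.2 in perampanel libraries, against 37.4, 41.1 and 22.04 in control libraries. Control library 3 was the lowest, and the log2 fold change was 0.20 (95% interval -0.29 to 0.68), which became -0.07 without that library. Slc50a1 had 196, 201 and 196 in perampanel libraries, against 175, 191 and 205 in control libraries, with overlap and a log2 fold change of 0.06.

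**Figure D4:**
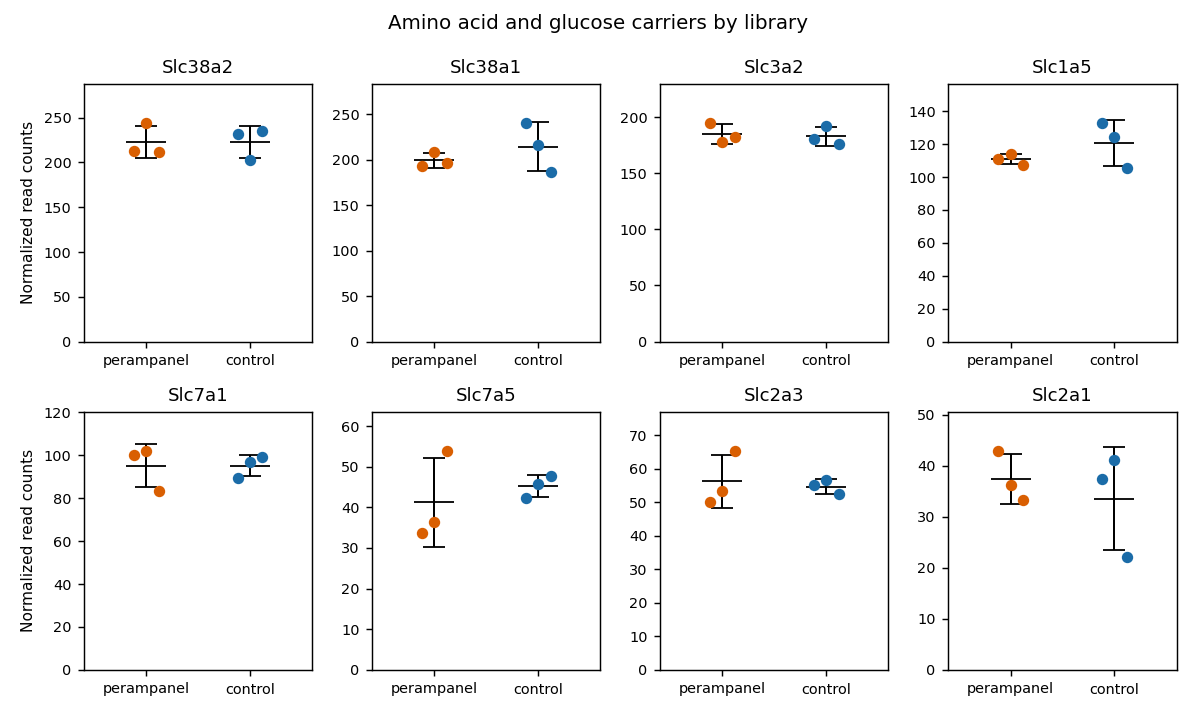
Normalized read counts of 6 amino acid carriers and 2 glucose carriers (vertical axes, each from 0) in 3 perampanel libraries (left, orange) and 3 control libraries (right, blue). Points are libraries, long bars are means and whiskers are SD. The groups overlap in all 8 genes, as in Slc7a5 with 33.7 to 53.8 in perampanel and 42.3 to 47.8 in control libraries.

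Of the monocarboxylate carriers, 4 of 13 Slc16 genes in the table were within the rule and 0 were called. Slc16a5 had 42.8, 36.3 and 27.5 normalized counts in perampanel libraries, against 38.4, 41.1 and 46.8 in control libraries, with a log2 fold change of -0.26 (95% interval -0.69 to 0.18). Slc16a1 (MCT1), which moves lactate and pyruvate, had 35.7, 42.4 and 21.8 in perampanel libraries, against 37.4, 31.1 and 53.3 in control libraries. The groups overlapped in both genes, and the log2 fold change of Slc16a1 was -0.29 (95% interval -0.80 to 0.21).

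The carriers that clear or load glutamate in the nervous system were nearly without reads. Summed over 5781938 reads in perampanel libraries and 6427085 in control libraries, Slc1a1 had 0 reads in perampanel and 3 in control libraries, Slc1a2 had 2 in perampanel and 0 in control libraries, and Slc1a3 had 0 in perampanel and 2 in control libraries. Slc1a6 had 0 reads in all 6 libraries, and Slc1a7 had 1 read, in perampanel library 1. Slc1a4, a carrier of neutral amino acids in the same family, had 6 reads in perampanel and 14 in control libraries. Of the vesicular glutamate transporters, Slc17a6 had 0 reads in perampanel and 1 in control libraries, Slc17a7 had 2 in perampanel and 4 in control libraries, and Slc17a8 had 0 in all libraries. The cystine-glutamate exchanger Slc7a11 had 2 reads in perampanel and 3 in control libraries. A library at 0 allows up to 3 reads, or 2.74 to 3.43 normalized counts depending on the library, counting error only. Differences of these genes were not detectable at this depth. Among the 150 Slc genes that had reads but averaged under 10, limma without a filter on low values called 0, against 0.926% of the 19321 genes in that fit, and 9 of 150 (6%) had an unadjusted p under 0.05, against 7.22%.

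Ion and pH carriers had more values above 0 than below, but not among the most read of them. Of 14 genes 0 were called, 9 had a fold change above 0 and 5 below with the deposited, quantile and TMM scalings, and the median was 0.29. In the 5 genes with a mean of at least 50 the direction turned, with 2 above and 3 below and a median of -0.08. Without control library 3 the median over the 14 was 0.13. The summed level was 728, 745 and 747 normalized counts in perampanel libraries, against 687, 705 and 694 in control libraries. Every perampanel sum was higher, by 6.45% on average and by 7.05% with TMM scaling. The groups did not overlap in 4 of the 14 genes, all higher under perampanel, against 7.18% of all tested genes that were higher without overlap.

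Sodium-proton exchangers set the pH of the cytosol and of organelles. Of those in organelle membranes, Slc9a9 was at 0.42 (95% interval -0.03 to 0.87) and Slc9a8 at 0.05 (95% interval -0.37 to 0.46) on the log2 scale, and the groups overlapped in both genes.

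The chloride cotransporters pointed both ways. Slc12a7 (KCC4), which exports potassium and chloride, had 179, 185 and 205 normalized counts in perampanel libraries, against 203, 219 and 218 in control libraries. Perampanel library 3 lay above control library 1, and the log2 fold change was -0.17 (95% interval -0.38 to 0.04). Slc12a9 had 22.4, 20.2 and 26.3 in perampanel libraries, against 17.7, 12.8 and 17.5 in control libraries, without overlap and with a log2 fold change of 0.50 (95% interval -0.10 to 1.103). Slc26a11 had 19.4, 18.2 and 21.8 in perampanel libraries, against 12.8, 13.7 and 15.6 in control libraries, also without overlap, with a log2 fold change of 0.47 (95% interval -0.17 to 1.098). Their adjusted p was 0.637 or higher (limma, Benjamini-Hochberg).

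Metal carriers had more values above 0 than below. Of 21 genes 0 were called, 14 had a fold change above 0 and 7 below, with a median of 0.09, and the median was 0.04 without control library 3 and 0.16, with 13 above and 8 below, without perampanel library 2. The summed level was 1040.2, 1063 and 1089 normalized counts in perampanel libraries, against 1018, 1003 and 1012 in control libraries. All perampanel sums were higher, by 5.25% on average and by 5.84% with TMM scaling, while the groups overlapped in each of the 21 genes. Slc41a3, a magnesium transporter, had 99.9, 92.8 and 105 in perampanel libraries, against 74.8, 69.4 and 100.1 in control libraries. Control library 3 lay among the perampanel values and the log2 fold change was 0.30 (95% interval -0.01 to 0.61, adjusted p 0.546 by limma with Benjamini-Hochberg). Of the zinc carriers, Slc30a1, which exports zinc from the cell, was at 0.35 (95% interval -0.08 to 0.77) and Slc39a7, which releases zinc from the endoplasmic reticulum, at -0.01 (95% interval -0.24 to 0.22) on the log2 scale. In Slc39a7, 74.5% of the 50-base stretches also belonged to the overlapping gene Gm20427, so its reads cannot be told apart from those of that gene. The phosphate importer Slc20a1 had 141, 148 and 116 in perampanel libraries, against 164, 143 and 182 in control libraries. Perampanel library 2 lay above control library 2, and the log2 fold change was -0.27 (95% interval -0.53 to -0.02, adjusted p 0.468 by limma with Benjamini-Hochberg).

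The Slc33, Slc35 and Slc37 genes numbered 23 and were classed by family as carriers of nucleotide sugars, sugar phosphates and acetyl-CoA. The substrate was not checked gene by gene. Of the 23, 0 were called, 13 lay above 0 and 10 below. Quantile normalization gave 16 and 7, and the direction turned to 10 above and 13 below without perampanel library 3 and to 11 and 12 without control library 3. Slc35b1, which exchanges ATP and ADP across the membrane of the endoplasmic reticulum, had 87.7, 64.5 and 55.0 normalized counts in perampanel libraries, against 111, 89.5 and 84.5 in control libraries. Perampanel library 1 lay above control library 3 and the others lay below all controls. Its log2 fold change was -0.47 (95% interval -0.81 to -0.13, adjusted p 0.261 by limma with Benjamini-Hochberg). Slc35a4 had 84.7, 102 and 88.1 in perampanel libraries, against 97.4, 102 and 134 in control libraries, with overlap and a log2 fold change of -0.27 (95% interval -0.56 to 0.02). Of its 50-base stretches 15.2% occurred in other annotated genes. Slc35d1, which brings nucleotide sugars into the endoplasmic reticulum, had 11.2, 14.1 and 11.5 in perampanel libraries, against 22.6, 17.4 and 14.7 in control libraries. Slc35d1 and Slc35g1 were the 2 genes of the class without overlap, both lower under perampanel, against 6.9% of all tested genes that were lower without overlap, at -0.52 and -0.32 on the log2 scale. Slc35b3, a Golgi carrier of the sulfate donor, and Slc35c1, the GDP-fucose carrier, were at 0.06 and 0.01.

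No carrier of lysosomes, vitamins, nucleosides or organic ions was called. The 5 lysosomal and proton-coupled carriers were all above 0 with the deposited, quantile and TMM scalings and 4 of 5 in thinned libraries, with a median of 0.14. Without control library 1 the split was 3 and 2 and the median 0.03, without control library 2 the median was 0.30, without control library 3 it was 0.06, without perampanel library 1 0.05 and without perampanel library 2 0.22. Slc17a9 had 207, 213 and 182 normalized counts in perampanel libraries, against 179, 213 and 181 in control libraries, with a log2 fold change of 0.07. Slc19a1, the reduced folate carrier, had 33.7, 27.2 and 35.5 in perampanel libraries, against 33.5, 17.4 and 28.5 in control libraries. Its log2 fold change was 0.31 (95% interval -0.21 to 0.84). Slc29a1, an equilibrative nucleoside transporter, had 46.9, 37.3 and 53.8 in perampanel libraries, against 49.2, 45.7 and 66.1 in control libraries, with a log2 fold change of -0.21 (95% interval -0.61 to 0.18). The groups overlapped in all 3 genes. Slc44a2 had 803, 819 and 817 in perampanel libraries, against 784, 815 and 682 in control libraries. Control library 3 was the low one, and the log2 fold change was 0.10 (95% interval -0.04 to 0.24).

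The genes that work with these carriers were measured in the same fit. Of 7 tested partner proteins 1 was called, against the 1.1% of all genes, and 4 lay above 0 and 3 below. The list was chosen with earlier results of these data known, so this count is a description. Txnip, a protein that among other roles lowers glucose uptake by removing glucose carriers from the surface, had 1609, 1634 and 1433 normalized counts in perampanel libraries, against 1104, 1265 and 1232 in control libraries. The groups did not overlap, and the log2 fold change was 0.38 (adjusted p 0.00065 by limma with Benjamini-Hochberg). Emb, a chaperone of monocarboxylate carriers, had 749.6, 814 and 884 in perampanel libraries, against 573, 680.4 and 772 in control libraries. Control library 3 lay above perampanel library 1, and the log2 fold change was 0.28 (adjusted p 0.104 by limma with Benjamini-Hochberg). Bsg, another such chaperone, was at -0.07.

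The sodium pump, whose gradient drives many of these carriers, had 4 tested subunits, 0 called and all 4 above 0, with a median of 0.11. Its subunit gene Atp1b3 had 1862, 1879 and 2033 normalized counts in perampanel libraries, against 1682, 1694 and 1755 in control libraries. These did not overlap, with a log2 fold change of 0.17 (adjusted p 0.0913 by limma with Benjamini-Hochberg). The summed level of the 9 listed genes was 4306, 4094 and 4389 in perampanel libraries, against 3839, 3942 and 3984 in control libraries, also without overlap. Carrier genes of the superfamily under other symbols numbered 19 among those tested, with 0 called, 13 above and 6 below 0 and a median of 0.06. The most read of them, the mitochondrial carrier Ucp2, had 1947, 1858 and 1925 normalized counts in perampanel libraries, against 1742, 1785 and 1819.5 in control libraries. These did not overlap, with a log2 fold change of 0.10 (adjusted p 0.494 by limma with Benjamini-Hochberg). Of 33 tested genes of amino acid sensing to mTORC1, 0 were called, 17 lay above and 16 below 0, with a median of 0.01.

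The precision of these comparisons was set by the level of the gene. In the 21 genes with a mean of at least 100, the 95% interval of the log2 fold change had a median half-width of 0.22 and stayed within 1 in either direction for 21 of 21 and within 0.5 for 17. In the 90 genes with a mean of 20 to 100 the median half-width was 0.42, with 88 within 1 and 21 within 0.5. In the 28 genes below 20 it was 0.72, with 12 within 1 and 0 within 0.5. Over all 139 genes, 121 intervals stayed within 1 in either direction and 38 within 0.5. That no gene was called does not show that the carriers were equal.

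**Figure D5:**
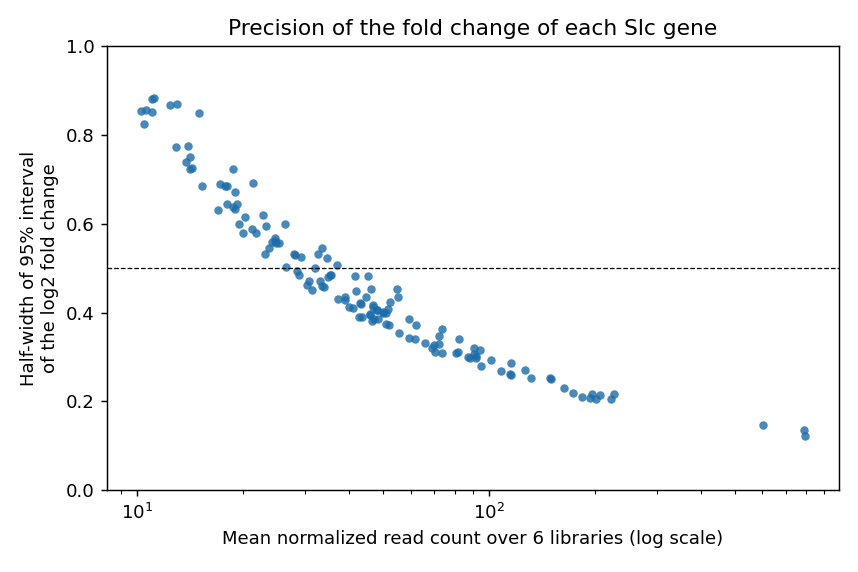
Half-width of the 95% interval of the log2 fold change (vertical axis, log2 units) against the mean normalized read count over 6 libraries (horizontal log axis). Points are the 139 Slc genes and the dashed line marks 0.5. The median half-width is 0.22 in 21 genes with a mean of at least 100 and 0.72 in 28 genes with a mean under 20.

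Markers of the cells in the libraries were compared with the label of lymphocytes. All 10 T cell markers passed the filter on low values. B cell markers summed to 500.2 to 551 normalized counts in perampanel libraries and 521 to 539 in control libraries, and myeloid markers to 144 to 172 in perampanel and 124 to 204 in control libraries. Adgre1 of the myeloid list, Ccl21a of the stromal list, Hba.a2 and Slc4a1 of the erythroid list, and Cidec and Retn of the adipocyte list were at 0 in all libraries. Summed stromal and endothelial markers, mostly Pecam1, were 202 to 248 in perampanel libraries and 179 to 209 in control libraries, and summed erythroid markers 9.08 to 41.2 in perampanel and 7.31 to 14.8 in control libraries. Their part in the Slc values was not tested.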

How the data were processed

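The authors deposited 1 table of 23307 genes. Its signal values are, as deposited, read counts divided by 1 size factor per library. The authors also deposited log2 fold changes, a Wald score, p-values and adjusted p-values of their comparison, made with DESeq2 per the file headers and the submitters' processing notes. Those notes name DESeq2, DESeq and the build GRCm38, without versions. Which aligner and counter ran is not given in the sources used here. Columns were tied to samples by the labels' descriptions, and 0 other per-sample columns were present. The deposited signal was a whole multiple of 1 step per library (100% within 1e-06), so reads could be recovered: 1779724 to 2208589 per library.

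Genes averaging 10 or more were compared by limma-trend on log2(value + 1), run in limma 3.58.1 under R 4.3.3, with treatment as sole term, 3 perampanel against 3 control mice, Benjamini-Hochberg over 9076 genes. Fold changes on this scale are understated in low genes. Intervals are limma's 95% intervals. An SD of 3 libraries is a loose estimate of spread and can fall below counting error. No libraries agreed within sampling noise. An exact permutation test of 3 against 3 cannot go below 0.1 and was not used. Levels per kb use merged exons of GENCODE M21 (GRCm38). Classes of carriers were assigned by hand from family and known substrate. Alternatives were quantile and TMM scaling, other filters and pseudocounts, edgeR 4.0.16 and DESeq2 1.42.0 on recovered reads, the replicate number as a block, and leaving out each library. Thinning was added after seeing the data. The limma script was tested on simulated data.

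The members, lists and classes were chosen with earlier results of these data known. Named genes were the 10 members of largest absolute fold change among those averaging 50 or more, the 10 of highest mean, the leading members of 7 families and a set of glutamate, glucose, amino acid, folate and nucleoside carriers. Slc25a27, Slc12a9, Slc26a11, Slc35d1, Slc35g1 and Slc25a39, and other genes quoted as examples of a class, were chosen after their values were seen. A few named members are not reported here.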

Additional observations from a re-analysis of the deposited data

How the results depend on the processing

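Over 16 alternatives, 38 named genes gave 596 fold changes, of which 570 kept their sign and their side of the threshold, 23 turned sign and 3 passed the threshold. No alternative called a member higher. The count called lower became 1, Slc25a4, with no filter on low values, with a mean of at least 50 (52 members) and in thinned libraries, and was 0 in the rest, DESeq2 included, which gave an adjusted p for 19 members only. The median over members was 0.0229 with quantile normalization, -0.00803 with a mean of at least 50, and -0.0182 to 0.0226 over the fits that left out 1 library. Slc38a2 turned to 0.00764 with TMM scaling, 0.00123 with DESeq2, 0.00151 with edgeR and 0.0202 when thinned, and Slc7a1 to 0.00285, 0.00100 and 0.00181 in the first 3 of these. Slc3a2 turned to -0.00873 with quantile normalization. With 1 library left out, Slc25a30 ranged from -0.0700 to 0.0651, Slc2a1 from -0.0724 to 0.362, Slc2a3 from -0.0796 to 0.110, Slc38a2 from -0.0675 to 0.0389, Slc3a2 from -0.0230 to 0.0506, Slc50a1 from -0.00237 to 0.110 and Slc7a1 from -0.0568 to 0.0845. The cause was not tested. With the replicate number as a block, 0 members and 103 of all genes were called. Deviations of same-numbered libraries correlated by 0.016 to 0.033, below the 0.1 required to treat the numbers as pairs, although each library correlated best with its own number, as a hint from the data only. The limma p-values and intervals rest on a spread that blends each gene's own, between 3 mice per group, with a trend over all tested genes. They therefore measure the spread of a single gene only in part. Depth limits genes of few reads most, and intervals cover these 6 libraries only.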

Other observations

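The values below are of Slc genes that averaged under 10 normalized counts, with p-values from the limma fit without a filter on low values. Slc25a13, an aspartate-glutamate carrier of mitochondria, had 6.12, 4.03 and 1.14 normalized counts in perampanel libraries, against 16.7, 10.05 and 11.02 in control libraries, from 11 and 40 reads. The groups did not overlap, and the adjusted p was 0.161 (limma, Benjamini-Hochberg). Its paralog Slc25a12 within the rule was at -0.12 on the log2 scale (95% interval -0.42 to 0.18). Slc22a2, an organic cation transporter, had 3 reads in perampanel and 19 in control libraries, with an adjusted p of 0.0850 (limma, Benjamini-Hochberg). The nucleoside transporter Slc29a2 had 5 reads in perampanel and 21 in control libraries, with an adjusted p of 0.489 (limma, Benjamini-Hochberg). These genes were chosen after their values were seen.

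In the authors' deposited table, 19 of the 139 Slc genes had an adjusted p and 0 were under 0.05, against 50 of 3018 genes overall. The sign of the fold change in the authors' deposited table equalled that of the limma fit in 131 of 139.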
